A study of Mus musculus with 14 samples.

Results

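The TGF-beta and myostatin pathway genes examined here were Tgfb1, Tgfb2, Tgfbr1, Tgfbr2, Smad3, Smad7, Mstn, Fst, Acvr2a and Acvr2b, and every ChIP-seq peak to which the authors' annotation gave one of these names was collected. Of these 10 genes, 7 had a listed peak. They held 15 of the 10303 peaks in the 12 lists, which fell into 11 of 6557 regions (a region is a set of peaks that overlap by at least 1 bp). Muscle stem cells (MuSCs), the resident progenitors of skeletal muscle, were sorted from wild-type mice in which a Pax7-Cre(ERT2) driver and tamoxifen (75 mg/kg on 5 days) switch on mitochondrial Dendra2, a fluorescent protein, in MuSCs and their progeny. Quiescent cells (QSCs) were the CD34+ Dendra2+ cells of uninjured tibialis anterior (TA) muscle, which received saline. Activated cells (ASCs) were the CD34- Dendra2+ cells of the contralateral TA muscle, taken 2 days after injury with 50 µL of 1.2% BaCl2. Chromatin of both was precipitated with an antibody to MyoD or to MyoG, with 3 libraries in each of the 4 groups. The CD34 gate is part of how the states were separated, the mice were adults of an age not given in the sources used here, and neither was whether a library came from 1 mouse or a pool. The libraries of a group were described as biological replicates, and p-values measure the spread between them.

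Transforming growth factor beta (TGF-beta) ligands bind a type II receptor, which recruits and phosphorylates a type I receptor, and the active pair phosphorylates SMAD2 and SMAD3, which enter the nucleus with SMAD4 and regulate transcription. Myostatin, encoded by Mstn, is a secreted relative that limits muscle mass, and it signals mainly through activin type II receptors (Acvr2b and Acvr2a) to the same SMADs. Follistatin (Fst) traps myostatin and activins outside the cell, and SMAD7 inhibits the receptors from within. In muscle, this pathway is known as a brake on myoblast differentiation and on growth. MyoD and MyoG are basic helix-loop-helix factors of the muscle lineage that bind E-boxes, short sites of the form CANNTG.

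Peak lists hold positions, scores and gene labels but no reads, so read depth is unknown for all libraries. ASC lists held 2262 to 2652 peaks for MyoD and 605 to 916 for MyoG, and QSC lists held 139 to 174 and 120 to 167. The score of a peak is minus 10 times the log10 of its p-value, and the lowest in any list was 50.0, a p-value of 1e-05. A score rises with the depth of its library, so it ranks calls within a list and does not measure how strongly a factor bound. The lists hold no expression, so marker genes could be read only as MyoD peaks, and these do not show which cell types were present. Of 12 known MyoD targets, 7 had a region that was ASC-specific for MyoD, which means a peak in at least 2 of 3 ASC libraries and in no QSC library, and Myog, Chrna1, Des and Mef2a were among them. Over all protein-coding genes in RefSeq, 5.92% were so called and 10.7% had at least 1 ASC MyoD peak. Of the known targets not so called, Chrng had a peak in 1 ASC MyoD library, and Cdh15, Ckm, Chrnd and Tnnt2 had none in any list. The Myog region had scores of 50.7 and 54.2 in 2 libraries, near the lowest score of the lists. Of 6 stem cell genes, 1 was ASC-specific for MyoD, namely Myod1, whose protein the paper uses to count activated cells. Pax7 had a peak in 1 ASC MyoD library with a score of 51.8, and Myf5, Cd34, Calcr and Spry1 had none in any list. Of 3 fibro-adipogenic genes, 0 were ASC-specific for MyoD and 1 had an ASC MyoD peak. None of 4 immune genes had an ASC MyoD peak, while 2 of 3 endothelial genes, Pecam1 and Cdh5, were so called. The 2 recurring regions labeled Pecam1 lay inside the gene, but the 5 labeled Cdh5 were distal intergenic, 350 to 606 kb from it, so the label gives only the gene to which the annotation assigned them. Whether other cell types were present cannot be told from these peaks, and the part of endothelial cells in the results was not tested.

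All 15 peaks at the pathway genes were called with the MyoD antibody in ASCs, 5 in each of the 3 libraries (5.00 ± 0.00 per library, SD, n = 3). No peak at any of the 10 genes was listed in the 3 ASC MyoG, 3 QSC MyoD or 3 QSC MyoG libraries. Tgfb2 and Tgfbr1 were the genes with a region found in all 3 ASC MyoD libraries. At the other 5 genes with peaks (Tgfbr2, Acvr2a, Acvr2b, Smad3 and Smad7), each region came from 1 library. Tgfb1, Mstn and Fst had no listed peak and count as not bound. The plot of scores by library shows this pattern, with a single filled block of columns.

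**Figure D1:**
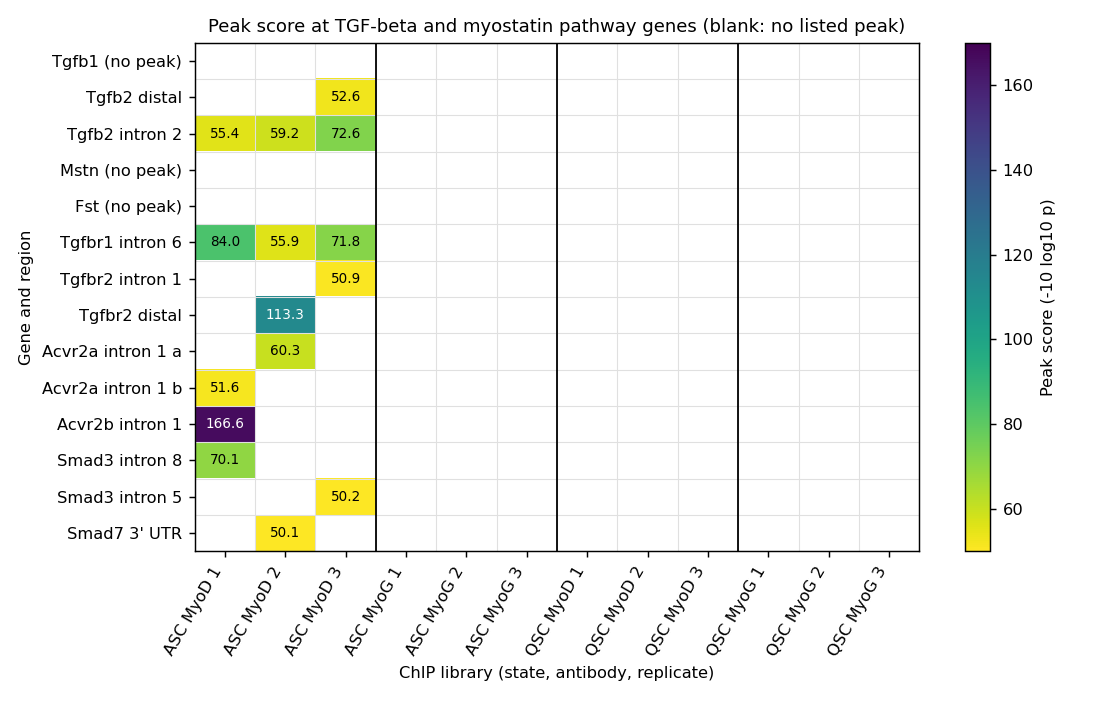
Score of each peak (color and printed value, minus 10 times log10 p) at the pathway genes, with regions as rows and the 12 libraries as columns, and blank cells where no peak was listed. The filled cells lie in the 3 ASC MyoD columns, and only the Tgfb2 intron 2 and Tgfbr1 intron 6 rows are filled in all of them.

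With the rule of at least 2 of 3 ASC libraries and 0 of 3 QSC libraries, 2 of the 10 genes were ASC-specific for MyoD, against 5.92% of the 21887 protein-coding genes in RefSeq. For a region in 3 of 3 libraries the count was again 2 of 10, against 3.58%. No QSC list held a peak at these genes, so both counts rest on recurrence in ASC MyoD and do not measure a difference between states. For at least 1 ASC MyoD peak in any library the count was 7 of 10, against 10.7%. Of 83 other genes of the pathway, described below, 13 had such a peak. The 10 genes were chosen with earlier results of these data known. Counts over them, here and below, therefore describe these genes and do not test the pathway against the background. For MyoG, 0 of 10 genes had an ASC-specific region, against 0.187%. In QSCs, 0 of 10 had a region in 2 libraries, against 0.0594% for MyoD and 0.0183% for MyoG, and for at least 1 peak in any library it was 0 of 10 against 3.36% for MyoG in ASCs, and 0 of 10 against 1.02% for MyoD and 1.27% for MyoG in QSCs. With backgrounds this low, a count of 0 among 10 genes is near the background for MyoG and for both QSC groups.

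The size of the lists sets how far their absence from QSCs can be read. The pathway peaks made up 0.189%, 0.221% and 0.218% of the ASC MyoD lists in replicates 1, 2 and 3, and 0.208% of them together (15 of 7210 peaks, 95% Wilson interval 0.126% to 0.343%). In QSC MyoD, 0 of 484 peaks allows a share of up to 0.62%, and in QSC MyoG 0 of 449 peaks allows up to 0.668%, and both limits lie above the ASC MyoD share. A lower share in QSCs was therefore not detectable with lists of this length. In ASC MyoG, 0 of 2160 peaks allows up to 0.139%, which is below the ASC MyoD share but inside its interval. The limits for a share of 0 are 3 divided by the number of peaks, which is not the Wilson measure. Upper ends of the 95% Wilson intervals were 0.787% for QSC MyoD, 0.848% for QSC MyoG and 0.178% for ASC MyoG. These limits and intervals cover counting error only, and peaks of the same site in several lists are not independent.

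Among the ligands, Tgfb2 (ENSMUSG00000039239) carried the most peaks, with 1, 1 and 2 peaks in ASC MyoD replicates 1, 2 and 3 and 0 in each of the 9 other libraries. TGF-beta 2 is one of the secreted TGF-beta ligands. Its recurring region lay in intron 2 of 6 (chromosome 1, 186634729 to 186635651, mm10), 70.8 kb downstream of the transcription start in the 3′ part of the gene. The scores there were 55.4, 59.2 and 72.6, a mean of 62.4 ± 9.04 (SD, n = 3). The 3 peaks were 743 to 763 bp wide and shared 593 bp, and their centers lay within 164 bp of each other. The position therefore recurred closely, although the scores were modest and ranked at the 15.0 to 55.4 percentile of their lists.

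The other Tgfb2 peak was distal intergenic (chromosome 1, 186399438 to 186400323) with a score of 52.6 in ASC MyoD replicate 3 alone, 306 kb from the transcription start. Peaks per library at Tgfb2 did not overlap between ASC and QSC MyoD libraries (difference of means 1.33, exact two-sided permutation p-value 0.1, 0.312 after Benjamini-Hochberg adjustment over 3223 genes). Against ASC MyoG the difference was also 1.33 (exact permutation p-value 0.1, 0.384 adjusted over 3916 genes). With 3 libraries against 3, 0.1 is the smallest p-value that the design allows, so no comparison of this kind could reach 0.05.

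Among the receptors, Tgfbr1 (ENSMUSG00000007613), the type I receptor for TGF-beta, had 1 peak in each of the 3 ASC MyoD libraries and none in the 9 others. The region lay in intron 6 of 8 (chromosome 4, 47404282 to 47405198) of a gene of 61.7 kb. It was 51.5 kb downstream of the first transcription start and 18.5 kb downstream of the second. Its scores were 84.0, 55.9 and 71.8 in replicates 1, 2 and 3, a mean of 70.6 ± 14.1 (SD, n = 3), at the 19.3 to 59.4 percentile of their lists. The peaks shared 778 bp and their centers lay within 69 bp. The groups did not overlap (difference of means 1.00 peak per library against QSC MyoD, exact permutation p-value 0.1, adjusted 0.312; the same difference against ASC MyoG, exact permutation p-value 0.1, adjusted 0.384). Over all protein-coding genes, 3.78% had peaks per library that did not overlap between ASC and QSC MyoD with ASC higher, and 3.53% between ASC MyoD and ASC MyoG with MyoD higher. Among the pathway genes it was 2 of 10 in each case, the same genes, since no QSC or MyoG list held a peak at any of them.

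Neither region was called at a score of 80 in more than 1 library. At that stricter score (a p-value of 1e-08), 0 of the 10 genes kept a region in 2 libraries, and 1 of the 3 peaks at Tgfbr1 and none at Tgfb2 remained. The call at Tgfb2 and Tgfbr1 thus rests on recurrence of position and not on high scores. The share of all protein-coding genes with such a region at that score is not given here, so 0 of 10 has no background beside it.

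A pair of regions with higher scores lay next to these genes and were labeled with other genes. Upstream of Tgfb2, a distal intergenic region labeled Rrp15 (chromosome 1, 186714837 to 186716051) had scores of 126, 91.2 and 106 in ASC MyoD replicates 1, 2 and 3 (mean 108 ± 17.7, SD, n = 3). Its center was 9.46 kb upstream of the RefSeq start used here for Tgfb2 and 33.9 kb from that of Rrp15. The RefSeq span of Tgfb2 reaches further upstream than that start, and the region lay 5.14 kb from the span. Downstream of Tgfbr1, a distal intergenic region labeled Sec61b (chromosome 4, 47497570 to 47498644) lay 82.6 kb beyond the end of the gene, with scores of 343, 216 and 308 (mean 289 ± 65.5) and a peak with a score of 97.0 in ASC MyoG replicate 2. This was the nearest MyoG peak to any of the 10 genes. The center of that region was 23.4 kb from the start of Sec61b. The maps of both loci show these regions beside the intronic ones.

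**Figure D2:**
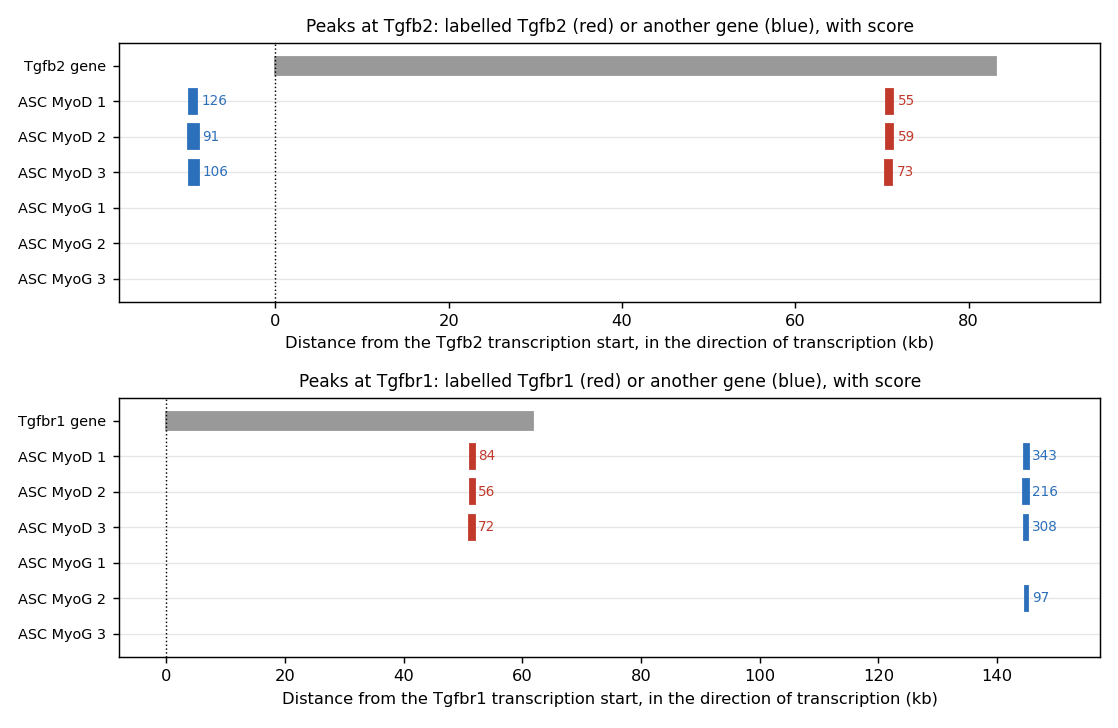
Peaks of the 6 ASC libraries around Tgfb2 (top) and Tgfbr1 (bottom) by distance in kb from the transcription start (the first start for Tgfbr1). The gray bar is the gene from that start to its end, which at Tgfb2 is 83.2 kb of the 86.9 kb span. Each peak is drawn to its width, with its score printed beside it. The red intronic peaks bear the gene's own name, and the blue peaks at 9.46 kb upstream of Tgfb2 and 82.6 kb beyond Tgfbr1 are labeled Rrp15 and Sec61b. The lone Tgfb2 peak at 306 kb lies outside the window.

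Within 250 kb of the 10 genes there were 13 such regions with another gene label, near 7 of the genes, against 66.5% of protein-coding genes with such a region, so 7 of 10 is near the background. Of these, 5 had a peak in all 3 ASC MyoD libraries, 1 had an ASC MyoG peak and 0 had a QSC peak. The 5 lay near 5 genes, Tgfb2, Tgfbr1, Acvr2b, Smad3 and Smad7, against 25.2% of protein-coding genes with a region of that kind in all 3 libraries. Mstn and Fst had no ASC MyoD peak in that window, and for Mstn the nearest was 606 kb away. The nearest one to Tgfb1 was 49.9 kb away, inside Bckdha.

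Tgfbr2 (ENSMUSG00000032440), the type II receptor for TGF-beta, had 0, 1 and 1 peaks in ASC MyoD replicates 1, 2 and 3, at 2 different sites. A distal peak 121 kb upstream of the start (chromosome 9, 116296091 to 116297122) had a score of 113 in replicate 2. A peak in intron 1 of 6 (chromosome 9, 116138610 to 116139228) had a score of 50.9 in replicate 3. Acvr2a (ENSMUSG00000052155), an activin type II receptor, likewise had 1, 1 and 0 peaks at 2 sites of intron 1 of 10, with a score of 51.6 in replicate 1 (chromosome 2, 48846835 to 48847452) and 60.3 in replicate 2 (chromosome 2, 48831043 to 48831910). Acvr2b (ENSMUSG00000061393), the activin type II receptor best known for binding myostatin, had 1, 0 and 0 peaks. Its peak lay in intron 1 of 9, 7.25 kb downstream of the start (chromosome 9, 119408859 to 119410001), and its score of 167 in replicate 1 was the highest of the 15.

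Among the SMADs, Smad3 (ENSMUSG00000032402), the signal transducer, had 1, 0 and 1 peaks in replicates 1, 2 and 3. They lay in intron 8 of 8 (chromosome 9, 63650491 to 63651485, score 70.1) and in intron 5 of 8 (chromosome 9, 63657083 to 63657663, score 50.2), 107 kb and 101 kb from the start. Smad7 (ENSMUSG00000025880), the inhibitory SMAD, had 0, 1 and 0 peaks, with a score of 50.1 in its 3′ untranslated region (chromosome 18, 75393896 to 75394592). Tgfbr2, Acvr2a and Smad3 thus each had peaks in 2 of 3 libraries without a shared position, and by gene rather than by region 5 of 10 genes had peaks in at least 2 libraries, against 6.34% of protein-coding genes. For these 3 genes the difference from QSC MyoD was 0.667 peaks per library (exact permutation p-value 0.4, adjusted 0.743). For Acvr2b and Smad7 it was 0.333 (exact permutation p-value 1.0, adjusted 1.0).

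The 15 peaks lay mostly inside the genes and none at a promoter. Introns held 12 of the 15, against 35.1% of all ASC MyoD peaks, with 2 distal and 1 in a 3′ untranslated region. Promoters, within 3 kb of a transcription start in the authors' annotation, held 0 of the 15, against 22.5% of all ASC MyoD peaks. The median score was 59.2, against 72.1 over all ASC MyoD peaks, and 8 of the 15 had scores under 60 while 3 reached 80. These are descriptions of a few peaks, of which the 6 at the recurring regions stand for 2 sites.

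RefSeq promoter windows (250 bases before to 50 after a start, GRCm38.p6) were matched for 8 of the 10 genes, 9 windows in all, and none was overlapped by a peak of any library. An E-box of the form CANNTG, which reads the same on both strands, was present in 4 of the 9 windows and in 72.3% of all 32851 windows. CAGCTG, an E-box often bound by MyoD and itself a form of CANNTG, was in 1 of 9 and in 16.3% of all. CAGGTG or its complement CACCTG, also forms of CANNTG, were in 0 of 9 and in 20.2%. The core SMAD site CAGAC or its complement GTCTG was in 6 of 9 and in 49.6%. The stretches with an E-box are shown as sites of this form at which no peak was listed. They are 30 bases long, 5′ to 3′ on the strand of the gene, with the E-box in capitals. The intronic regions carried the peaks and their sequences were not analysed here.
Tgfb2, minus strand of chr1:186706023-186706052, E-box 51 bases before the start: gttgaaggcaaaCACGTGgtttggggagca
Tgfbr1, plus strand of chr4:47385966-47385995, E-box 238 bases before the second start: tcgggttccttcCATTTGgcactggtctac
Tgfbr2, minus strand of chr9:116175330-116175359, E-box at base 17 after the start: agaggtcctgccCAGCTGttggcgaggagt
Mstn, plus strand of chr1:53061399-53061428, E-box 229 bases before the start: acttcaatttatCAAATGtcacatatatct
Mstn, plus strand of chr1:53061454-53061483, E-box 174 bases before the start: ttatgaagtagtCAAATGaatcagcttgcc
Mstn, plus strand of chr1:53061576-53061605, E-box 52 bases before the start: agatcctgacgaCACTTGtctcctctaagt
Mstn, plus strand of chr1:53061609-53061638, E-box 19 bases before the start: aatataaaaagcCACTTGgaatacagtata

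Mstn, with its nearest ASC MyoD peak 606 kb away, held 4 E-boxes in its window, the most of the 9 windows. Tgfbr2 held the only CAGCTG. A match of letters is a description and not a binding site.

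Genes differ in the room they give a peak. Mstn (6.44 kb), Fst (6.73 kb) and Tgfb1 (18.1 kb) were the 3 shortest of the 10 genes and the 3 without a peak. The 7 with a peak ranged from 28.6 kb (Smad7) to 111 kb (Smad3). Over all protein-coding genes, at least 1 ASC MyoD peak was listed for 4.46% of genes under 20 kb, 10.4% of genes from 20 to 50 kb, 18.0% from 50 to 100 kb and 34.1% over 100 kb. ASC-specific MyoD regions followed the same order, at 2.4%, 5.75%, 10.0% and 19.2%. Tgfb2 (86.9 kb) and Tgfbr1 (61.7 kb) were 2 of the 4 pathway genes from 50 to 100 kb, so the 10.0% of that class is the closer background for them. The length classes were set after the lengths had been seen, and the part of gene length in the calls was not tested.

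**Figure D3:**
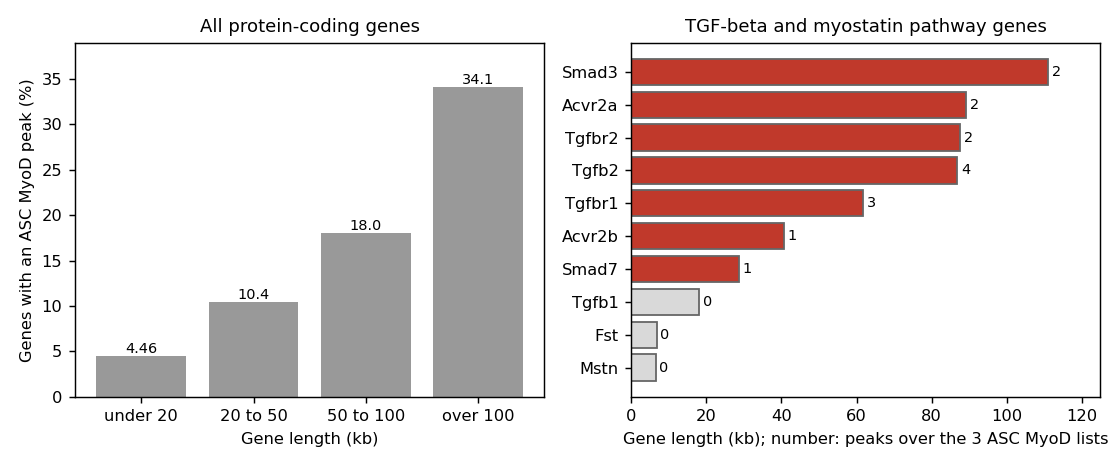
Left, percent of protein-coding genes with at least 1 ASC MyoD peak, by gene length class in kb. Right, length in kb of each pathway gene (red with a peak, gray without), with its number of peaks over the 3 ASC MyoD lists printed at the bar. The share rose from 4.46% to 34.1% with length, and the 3 gray bars are the shortest.

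Most of the 9 regions found in a single library had scores near the threshold, and 6 of them were under 61. Peaks of this kind often stood alone: of all ASC MyoD peaks with scores from 50 to 60, 55.5% overlapped no peak of the other 2 libraries. From 60 to 80, the class of the Acvr2a peak at 60.3 and the Smad3 peak at 70.1, it was 33.6%. The Acvr2b and distal Tgfbr2 peaks were unlike them. In ASC MyoD replicate 1, 255 peaks scored as high as the Acvr2b peak or higher, and 2 of these, the Acvr2b peak included, had no overlap in the other 2 lists (0.784%). In replicate 2, 440 peaks scored as high as the distal Tgfbr2 peak or higher, and 3 of these stood alone (0.682%).

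Peak numbers in these lists, given by MACS, follow genomic order, so a number without a listed peak marks a call that is outside the list. For Acvr2b the listed neighbors of the site were numbered 2388 and 2389 in replicate 2, and 2394 and 2395 in replicate 3, which leaves no number for an unlisted peak at the site. The same held for both Tgfbr2 sites, and for 8 of the 9 single-library regions in all. The exception was the distal Tgfb2 site, where 3 numbers were missing between the listed neighbors in each of the other 2 lists.

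**Figure D4:**
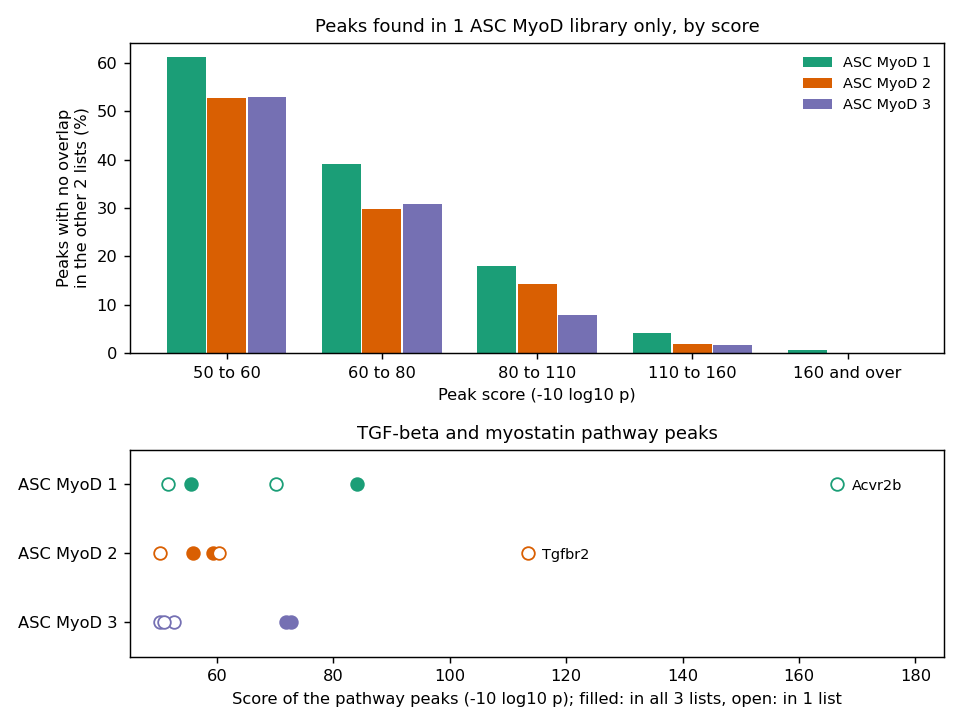
Top, percent of the peaks of each ASC MyoD library that overlap no peak of the other 2 lists, by score class. Bottom, score of the 15 pathway peaks in each library, filled where the region was in all 3 lists and open where it was in 1. The share standing alone fell from 55.5% over the 3 lists at scores of 50 to 60 to 0.292% at 160 and over, where the open Acvr2b point lies.

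The other genes of the pathway were read from a list of 83 genes matched in RefSeq (27 ligands, 10 receptors, 6 Smads, 18 extracellular inhibitors or stores, 12 intracellular regulators, 6 activators and 4 targets). Of these, 7 (8.43%) were ASC-specific for MyoD, against 5.92% of protein-coding genes, and 0 for MyoG. At least 1 ASC MyoD peak was listed for 13 of the 83, against 10.7% of protein-coding genes, and at least 1 ASC MyoG peak for 5, against 3.36%. No QSC peak was listed for any of them, against 1.02% for MyoD and 1.27% for MyoG, so a count of 0 is near the background. None of these 27 ligands and 6 Smads had a peak in any list, against 10.7% of protein-coding genes with an ASC MyoD peak and 3.36% with an ASC MyoG peak. Gene lengths in the wider list were not compared with the background, and a difference between roles was not tested.

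The recurring regions lay at receptors, latent TGF-beta binding proteins, an integrin and a target gene. Ltbp4 (ENSMUSG00000040488), which anchors latent TGF-beta in the matrix, had a region in intron 24 of 32 (chromosome 7, 27315817 to 27316690) with scores of 175, 183 and 105 in ASC MyoD replicates 1, 2 and 3 (mean 154 ± 43.0, SD, n = 3). Its relatives Ltbp2 (intron 8 of 35, 3 libraries, mean score 84.9 ± 32.0) and Ltbp1 (intron 25 of 33, 2 libraries, scores 104 and 84.4) had 1 region each. Bmpr1a, a type I receptor for bone morphogenetic proteins, had a region in intron 4 of 12 in 3 libraries (mean score 87.8 ± 36.7). Acvr1, a related type I receptor, had a region in intron 2 of 10 in 2 libraries (scores 65.5 and 145). Itgb6, an integrin subunit that activates latent TGF-beta, had 4 regions in at least 2 libraries, 2 of them in all 3 (mean scores 165 ± 48.2 and 117 ± 37.4). Klf10, a gene induced by TGF-beta, had a promoter region in 3 libraries (chromosome 15, 38301473 to 38303011, mean score 90.3 ± 11.5). The other Itgb6 regions had mean scores of 56.5 and 73.5 in 2 libraries each. Mean scores at the other 6 genes ran from 84.9 to 154, beside 62.4 at Tgfb2 and 70.6 at Tgfbr1, and these differences in score were not tested. The means at Ltbp1 and Acvr1 cover replicates 1 and 2 only, and a score ranks calls only within its list.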

How the data were processed

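Sample titles gave the group and the replicate number. Of the 14 samples, the 2 input libraries were not analysed here. Peak calling by the authors was done with MACS, 1 list per library, and each peak was given a gene and gene part. Per the labels, BWA 0.7.5, MACS, deepTools 3.5.0 and build mm10 were used. The MACS version, the use of inputs and later filters are not given in the sources used here. The deposited score is minus 10 times the log10 of the MACS p-value, and the other deposited values used, start and end (unit: other), are positions in bp. Read depth is unknown, so precision is limited by the number of peaks in each list.

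Peaks overlapping by at least 1 bp were merged into regions in Python 3.11.15 with pandas 2.3.3. The merging was tested on simulated lists. Peaks per library at each gene were compared by exact two-sided permutation over libraries, adjusted over all genes with a peak. RefSeq (GRCm38.p6, the same assembly as mm10) gave gene spans, starts and promoter windows: 96.3% of 3115 intronic peaks lay inside the RefSeq span of their gene, as did the 12 at the pathway genes. Of 4384 gene names in the lists, 4104 matched RefSeq. All regions of the 10 genes were described, and from the wider list those genes with a region in at least 2 libraries of a group were named. Genes, lists and tests were chosen with earlier results of these data known. No pair of lists shared a peak with identical coordinates. Alternatives were a score of 80, an overlap of 50% of both peaks, a gap of 500 bp, a peak in 3 or in 1 library, distal peaks left out, overlapping peaks of a list merged, each replicate left out, and pairing by replicate number.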

Additional observations from a re-analysis of the deposited data

How the results depend on the processing

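Counts of ASC-specific genes and of genes with an ASC MyoD consensus region were each 2 as reported, 0 at a score of 80 and 7 when a peak in 1 library was enough. They stayed at 2 with an overlap of 50% of both peaks, a gap of 500 bp and a peak in 3 of 3 libraries. They were also 2 with distal peaks left out and with each replicate left out. Without an ASC replicate, a region had to be in both remaining libraries. These leave-outs could not change the counts, since the Tgfb2 and Tgfbr1 regions were intronic and in all 3 ASC MyoD libraries. No other region recurred, and no QSC MyoD library held a peak at the 10 genes. Counts for MyoG and for QSCs could not become other than 0, since none of those lists holds a peak at the 10 genes, and say nothing of stability. The difference of 5.0 pathway peaks per library between ASC and QSC MyoD was 1.0 at a score of 80 and 4.33 without distal peaks. The 2 genes whose peaks per library did not overlap between groups became 0 at a score of 80, both against QSC MyoD and against ASC MyoG, and ran from 2 to 3 with each replicate left out, with 3 whenever an ASC MyoD library was the one left out. Shares of all protein-coding genes at a score of 80 are not given here, so the counts of 0 at that score have no background beside them. With the replicate number as a block, the paired difference was again 5.0 for MyoD and 0.0 for MyoG, 2 genes were higher in every pair in either comparison, and the exact sign-flip p-value for Tgfb2 and Tgfbr1 was 0.25, the smallest that 3 pairs allow. Whether same-numbered libraries came from the same mice is not given in the sources used here. The correlation of their deviations in log2 peak number ran from -0.986 to 0.999 over the 6 pairs of groups, over 3 numbers each, which does not settle it, and they were treated as unpaired. Of single genes at a score of 80, peaks per library fell to 0 at Tgfb2, Acvr2a, Smad3 and Smad7, and were 0.333 at Tgfbr1, Tgfbr2 and Acvr2b. They were also 0 at Acvr2b without ASC MyoD replicate 1 and at Smad7 without ASC MyoD replicate 2.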
